A study of Mus musculus with 6 samples.

Results

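The 10 genes examined here belong to the RNA sensing pathway that leads to interferon (IFN) production, and were measured in EMT6 cells, a mouse mammary carcinoma line, after long exposure to an antibody against PD-L1 in culture. The genes were taken by name, as 10 of the 53465 gene identifiers in the deposited table. They encode the RNA sensors RIG-I (Ddx58), MDA5 (Ifih1), LGP2 (Dhx58) and TLR3 (Tlr3), the adaptors MAVS (Mavs) and TRIF (Ticam1), the kinases TBK1 (Tbk1) and IKK-epsilon (Ikbke), and the transcription factors IRF3 (Irf3) and IRF7 (Irf7). Polyadenylated RNA was sequenced from 6 samples. In 3 samples (EMT6-P-VITRO, labelled Parental) the cells were kept with an isotype control antibody, and in 3 samples (EMT6-PTR-VITRO, labelled anti-PD-L1 Resistant) with the αPD-L1 antibody Clone 80. Both antibodies were used at 0.5 μg/ml for more than 4 weeks, in the same serum-containing medium. No immune cells and no added IFN were part of these cultures, and the PTR-VITRO cells were exposed to antibody without selection in a mouse.

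RIG-I and MDA5 are cytosolic helicases that bind double-stranded RNA and pass the signal to MAVS on the mitochondrial surface, whereas TLR3 binds double-stranded RNA in endosomes and signals through TRIF. Both routes converge on TBK1 and IKK-epsilon, which phosphorylate IRF3 and IRF7, and these factors then enter the nucleus and switch on the type I IFN genes. Several of the genes are themselves induced by IFN, so that a cell that has met IFN usually carries more of them. Among the 10 genes, Ddx58, Ifih1, Dhx58, Tlr3, Ikbke and Irf7 are known as IFN-inducible, and Mavs, Ticam1, Tbk1 and Irf3 are transcribed in most cells without it. PD-L1 is itself an IFN-regulated surface protein with signaling functions inside the tumor cell, and the comparison asked whether binding it with an antibody changes this machinery when no immune cell is present.

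Libraries held between 17757341 and 32426739 counts, and 14217 genes had enough counts to be tested. All 10 members were among them, with 225 to 3479 counts per sample. The values are gene-level expected counts scaled to library size as CPM, with the upper quartile of each library as scaling factor. The cells carried the keratins and vimentin of the line, with 4073 to 4240 CPM summed over Krt8, Krt18, Epcam, Vim and Cd44, although Epcam was low (1.24 to 2.41 CPM). Of 9 markers of immune and endothelial cells, 3 (Ptprc, Adgre1 and Flt3) had a count of 0 in every library, and the sum of all 9 was 0.165 to 0.334 CPM in P-VITRO and 0.141 to 0.281 CPM in PTR-VITRO. A lower level in bulk RNA can come from fewer cells that express a gene or from less RNA per cell, and these cannot be told apart here. Krt18 and Epcam had higher values in all PTR-VITRO libraries than in all P-VITRO libraries, without passing the edgeR test (adjusted p 0.139 and 0.392), and their part in the results was not tested.

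EMT6 cells expressed all 10 members. To compare levels between genes, CPM were divided by the length of the transcript with the longest coding sequence of each gene. On this scale of CPM per kilobase, Ddx58 had the highest level, with a mean of 28.8 over the 6 libraries (27.7 to 29.7), and Irf7 the next, with 27.0 (23.9 to 29.5). Their ranges overlapped. The kinases followed, Tbk1 with 18.9 (18.2 to 19.6) and Ikbke with 18.3 (16.9 to 19.7), and these ranges also overlapped. Irf3 had 15.4, Ifih1 12.6, Mavs 8.60, Dhx58 6.55, Ticam1 5.38 and Tlr3 3.13 CPM per kilobase. From Irf3 down to Tlr3, no library of a gene reached the level of any library of the gene ranked before it. The highest and the lowest mean, those of Ddx58 and Tlr3, differed by 9.21-fold on this scale. Both the factor and the order depend on the length used. With all annotated exons of a gene merged, which counts retained introns as transcript, Ddx58 and Tlr3 differed by 5.98-fold, Tbk1 moved ahead of Irf7, Ticam1 moved ahead of Dhx58, and Ikbke dropped behind Irf3, Ifih1 and Mavs.

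**Figure D1:**
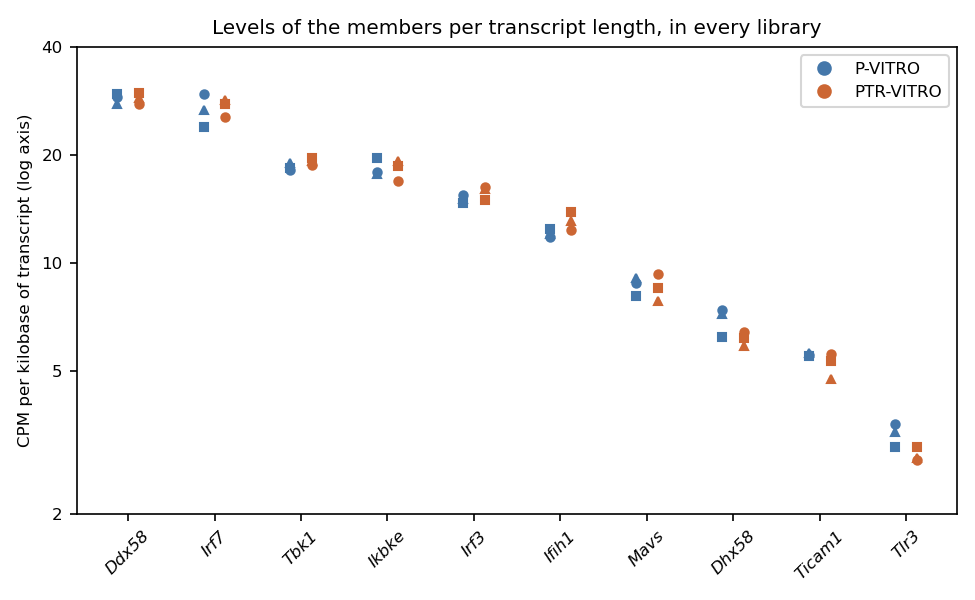
Level of each member in CPM per kilobase of transcript (vertical log axis) in the 3 P-VITRO and the 3 PTR-VITRO libraries, with circles, squares and triangles for replicates 1, 2 and 3. The genes are ordered by their mean, from Ddx58 at 28.8 to Tlr3 at 3.13, and the libraries of both groups lie at almost the same height for each gene.

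None of the 10 members was called different between PTR-VITRO and P-VITRO (edgeR quasi-likelihood test, adjusted p from 0.408 to 0.977), where 0.246% of all tested genes were called. DESeq2 and limma-voom also called 0 of the 10, where they called 0.946% and 0.218% of the genes to which they gave an adjusted p. At an unadjusted p below 0.05 there were 2 members, Ifih1 and Tlr3, with opposite signs, against 11.4% of all tested genes. The groups overlapped in every member, and they did not overlap in 17.6% of all tested genes. With 10 genes, this is too small a difference to set the members apart. The median log2 fold change of the 10 genes was -0.01, and it was -0.00 over all genes tested. These tests were precise enough to bound the differences. The 95% intervals of the 10 fold changes lay between 0.780-fold and 1.17-fold, so that for no member did the interval reach a change of 1.5-fold. They cover the spread between these libraries only. The study describes its replicates as technical unless it says otherwise, and nothing else is said of these libraries.

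**Figure D2:**
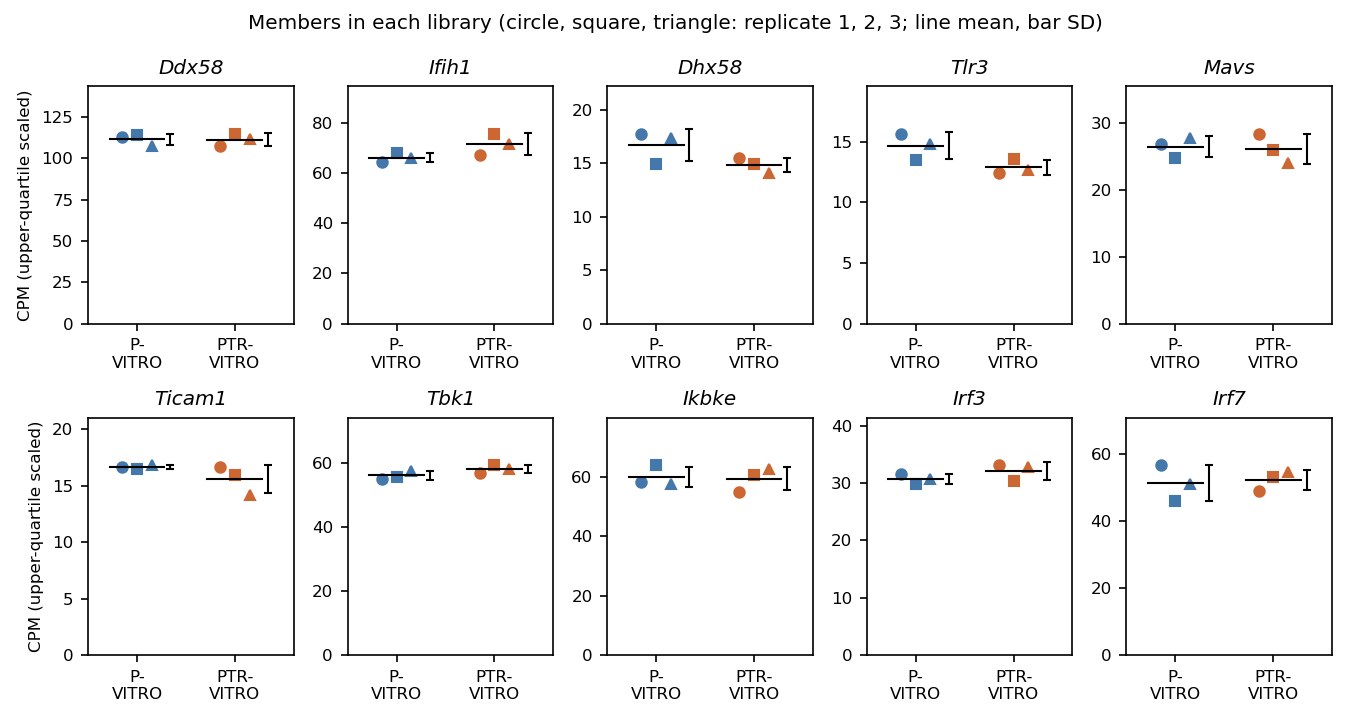
Level of each member in every library (vertical axes in CPM, starting at 0), with P-VITRO at the left and PTR-VITRO at the right of each panel. Circles, squares and triangles are replicates 1, 2 and 3, horizontal lines are group means and bars are 1 SD over n = 3, and in each of the 10 panels the points of the groups overlap.

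Among the sensors, Ddx58 (ENSMUSG00000040296.15, GRCm38, chromosome 4, 40203773 to 40239828) was the most abundant and the most even. RIG-I recognises the triphosphate ends of short viral RNA. The libraries had 113, 114 and 108 CPM in P-VITRO and 107, 115 and 112 CPM in PTR-VITRO. The highest and the lowest of the 6 libraries both belonged to PTR-VITRO and differed by 1.07-fold. The group means were 111.6 ± 3.47 and 111.3 ± 3.88 CPM (SD, n = 3 each), a log2 fold change of -0.01 (95% interval -0.10 to 0.09, edgeR adjusted p 0.975).

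Ifih1 (ENSMUSG00000026896.14, chromosome 2, 62595798 to 62646255) encodes MDA5, which binds long double-stranded RNA. It had 64.6, 67.9 and 66.0 CPM in P-VITRO and 67.4, 75.8 and 71.7 CPM in PTR-VITRO. Replicates 2 and 3 of PTR-VITRO lay above every P-VITRO library, and PTR-VITRO replicate 1 lay below P-VITRO replicate 2. Its log2 fold change was 0.11 (95% interval 0.00 to 0.22), the largest positive value among the members, with an unadjusted p of 0.0442 and an edgeR adjusted p of 0.424. In the 6 fits that left out 1 library the log2 fold change ran from 0.07 (without PTR-VITRO replicate 2) to 0.16, and the unadjusted p from 0.00756 to 0.213, below 0.05 in 2.

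Dhx58 (ENSMUSG00000017830.15, chromosome 11, 100694884 to 100704271) encodes LGP2, a relative of RIG-I and MDA5 that lacks their signaling domains and modulates them. Its CPM were 17.8, 14.99 and 17.4 in P-VITRO and 15.5, 14.9 and 14.1 in PTR-VITRO. The value of P-VITRO replicate 2 lay among those of PTR-VITRO, and the other P-VITRO libraries were higher than all of PTR-VITRO. Its log2 fold change was -0.16 (95% interval -0.34 to 0.02, unadjusted p 0.0734, edgeR adjusted p 0.498). Without P-VITRO replicate 2 it was -0.24, with an adjusted p of 0.206, the lowest of the 6 fits that left out 1 library. An antisense gene, Dhx58os, shares 141 exon bases with Dhx58 but had only 8.20 to 24.9 counts per library.

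Tlr3 (ENSMUSG00000031639.12, chromosome 8, 45395665 to 45411080), the endosomal receptor, was the lowest of the 10 genes. It had 15.7, 13.5 and 14.8 CPM in P-VITRO and 12.4, 13.6 and 12.6 CPM in PTR-VITRO. The groups overlapped by a narrow margin, between P-VITRO replicate 2 and PTR-VITRO replicate 2. The log2 fold change of -0.18 (95% interval -0.36 to -0.01) was the most negative among the members, with an unadjusted p of 0.0392 and an edgeR adjusted p of 0.408. In the 6 leave-one-out fits the unadjusted p ran from 0.0124 to 0.154 and was below 0.05 in 2. The sensors therefore did not share a direction, with Ifih1 on one side, Tlr3 and Dhx58 on the other and Ddx58 near 0.

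IFN and active IRFs act through a DNA element, the IFN-stimulated response element, whose core reads GAAA, any 2 bases, GAAA. This core was searched on both strands in windows from 250 bases before to 50 bases after the RefSeq start sites (GRCm38.p6), which were held for 9 of the 10 members (not for Dhx58). It was present in 2 of the 9, Ddx58 and Ifih1, and in 3.44% of all 32851 windows. In both genes the core lay just inside the first exon, at positions 33 to 42 of Ifih1 and 3 to 12 of Ddx58, counted from 1 at the first transcribed base. Of the 8 IRF3 and IRF7 target genes with a window, 5 held it, all before the start site. The sequences of both members are shown with those of 2 such targets, read along the gene from 5′ to 3′, and capitals mark the core (its reverse complement in Ddx58 and Ifit1):
Ddx58, chr4:40239804-40239833, minus strand: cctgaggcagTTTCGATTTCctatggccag
Ifih1, chr2:62646206-62646235, minus strand: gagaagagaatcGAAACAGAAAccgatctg
Isg15, chr4:156200865-156200894, minus strand: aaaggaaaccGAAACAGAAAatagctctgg
Ifit1, chr19:34640775-34640804, plus strand: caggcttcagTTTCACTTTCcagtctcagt

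The 10 bases in capitals are identical in Ifih1 and Isg15. Between the groups, however, neither gene passed the test (log2 difference 0.11 for Ifih1 and 0.13 for Isg15, edgeR adjusted p 0.424 and 0.536), and Ddx58 stayed at -0.01 (adjusted p 0.975). A match of letters does not show that a factor is bound there.

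Neither adaptor passed the test between the groups. MAVS carries the signal of RIG-I and MDA5, and Mavs (ENSMUSG00000037523.13, chromosome 2, 131234063 to 131248025) had 26.9, 24.8 and 27.8 CPM in P-VITRO and 28.4, 26.0 and 24.0 CPM in PTR-VITRO. The highest and the lowest library were both PTR-VITRO. The log2 fold change was -0.01 (95% interval -0.17 to 0.15, edgeR adjusted p 0.977). TRIF serves TLR3, and Ticam1 (ENSMUSG00000047123.8, chromosome 17, 56269319 to 56276786) had 16.6, 16.5 and 16.8 CPM in P-VITRO and 16.6, 15.9 and 14.2 CPM in PTR-VITRO. The P-VITRO libraries were nearly equal, with a coefficient of variation of 1.13%, and the PTR-VITRO libraries spread more widely, with 8.01%, because replicate 3 was low. The log2 fold change of Ticam1 was -0.08 (95% interval -0.24 to 0.07, adjusted p 0.701), and with a library left out it ran from -0.13 (PTR-VITRO replicate 1) to -0.03 (PTR-VITRO replicate 3).

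The kinases were evenly expressed as well. Tbk1 (ENSMUSG00000020115.3, chromosome 10, 121546455 to 121586787), the kinase used by both routes, had 55.0, 55.7 and 57.5 CPM in P-VITRO and 56.7, 59.3 and 58.1 CPM in PTR-VITRO. Its 6 libraries lay within 1.08-fold of each other, and its log2 fold change was 0.05 (95% interval -0.04 to 0.14, edgeR adjusted p 0.690). Ikbke (ENSMUSG00000042349.13, chromosome 1, 131254343 to 131279606), the relative of Tbk1 that is induced in inflammation, had 58.2, 63.9 and 57.5 CPM in P-VITRO and 54.9, 60.6 and 62.5 CPM in PTR-VITRO. The order of its libraries did not follow the groups, and its log2 fold change was -0.02 (95% interval -0.15 to 0.11, adjusted p 0.936).

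IRF3 waits in the cytoplasm of resting cells, and Irf3 (ENSMUSG00000003184.15, chromosome 7, 44997648 to 45002848) had 31.5, 29.9 and 30.6 CPM in P-VITRO and 33.1, 30.4 and 32.7 CPM in PTR-VITRO. Replicates 1 and 3 of PTR-VITRO were the highest, and replicate 2 lay among the P-VITRO libraries. Irf3 had a log2 fold change of 0.06 (95% interval -0.05 to 0.18, edgeR adjusted p 0.694), and with a library left out this ran from 0.04 (PTR-VITRO replicate 1) to 0.11 (PTR-VITRO replicate 2). Bcl2l12 is read from the other strand of the same locus, shares 88 exon bases with Irf3 and had 112 to 184 counts per library.

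Irf7 (ENSMUSG00000025498.15, chromosome 7, 141262706 to 141266481), the factor that amplifies an IFN response once it has begun, varied most within a group. It had 56.6, 45.8 and 51.0 CPM in P-VITRO, a coefficient of variation of 10.5%, and 48.8, 53.1 and 54.6 CPM in PTR-VITRO. All PTR-VITRO libraries lay between the lowest and the highest P-VITRO library. The log2 fold change was 0.03 (95% interval -0.13 to 0.19, edgeR adjusted p 0.925), and without P-VITRO replicate 2, the lowest library, it was -0.05 (adjusted p 0.793). Phrf1, on the opposite strand, shares 45 exon bases with Irf7 and had 1183 to 2112 counts per library. The library kit marks the strand of RNA, but whether the counting used it is not stated.

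**Figure D3:**
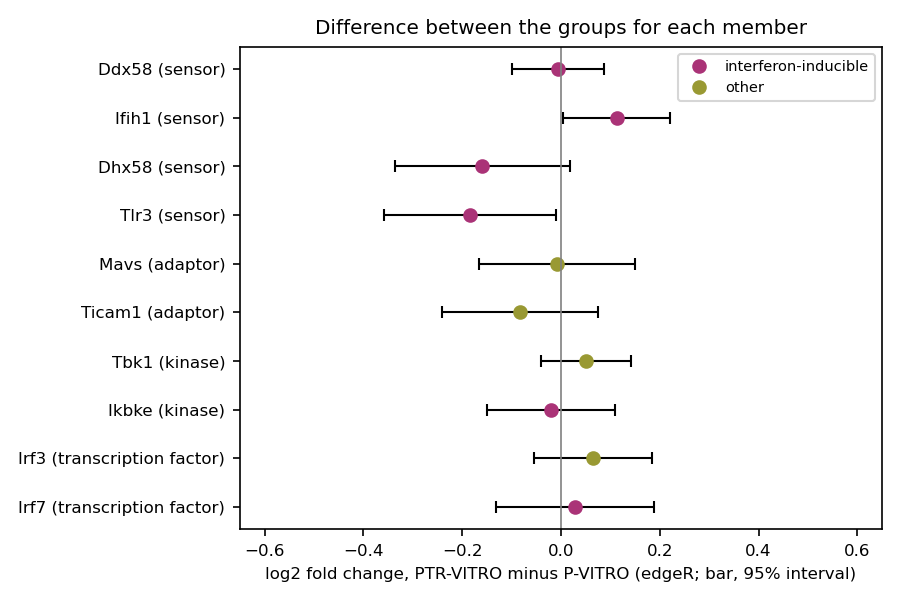
Log2 fold change of each member between PTR-VITRO and P-VITRO (horizontal axis, points) with its 95% interval (bars) from the edgeR fit, n = 3 libraries per group. The points lie between -0.18 for Tlr3 and 0.11 for Ifih1, and 8 of the 10 intervals include 0.

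The IFN-inducible members did not share a sign, and whether they moved as a group was not tested. Of these 6, 2 had a positive and 4 a negative log2 fold change, with a median of -0.01, and of the other 4 members 2 were positive and 2 negative, with a median of 0.02. Without a scaling factor, Ddx58 and Mavs turned to values just above 0. With 1 library left out, Ddx58, Mavs, Ikbke and Irf7 changed sign in some of the fits. The inducible members also did not share a highest library within P-VITRO. Replicate 2 had the highest Ddx58, Ifih1 and Ikbke of the P-VITRO libraries and the lowest Dhx58, Tlr3 and Irf7.

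The sensors of other nucleic acids and further parts of the pathway were taken from lists of 77 genes, of which 66 were tested. None of the 66 was called by edgeR, 6 had an unadjusted p below 0.05 and 9 had groups that did not overlap, set against the 0.246%, 11.4% and 17.6% of all tested genes. DESeq2 called 2 of them, Rsad2 and Oasl1, against 0.946% of the genes to which it gave an adjusted p, and limma-voom 0. Without the filter on low counts, edgeR called 3, Rsad2, Oasl1 and Eif2ak2, against 1.58% of the genes in that fit. Of 10 tested other sensors, 8 had a positive and 2 a negative log2 fold change, where 48.5% of all tested genes were positive. Their median was 0.08 (median over all genes tested -0.00). Eif2ak2 encodes the double-stranded RNA-dependent kinase PKR. It had 91.7, 87.4 and 85.9 CPM in P-VITRO and 90.4, 105.0 and 105.2 CPM in PTR-VITRO. The log2 difference was 0.18 (unadjusted p 0.0118, edgeR adjusted p 0.278). PTR-VITRO replicate 1 lay within the P-VITRO range, and without it the edgeR adjusted p of Eif2ak2 was 0.0562. In the fit without the filter it was 0.0260. For Oas2, which makes the activator of RNase L, the log2 difference was 0.16 (adjusted p 0.362), with 0.10 without P-VITRO replicate 2. The sensor of Z-form nucleic acid, Zbp1, differed by 0.10 on the log2 scale (adjusted p 0.706, and 0.02 to 0.17 when P-VITRO replicate 2 or 1 was left out). The cytosolic DNA route was present too, with means for Mb21d1 (cGAS) of 24.2 ± 0.0987 CPM in the control and 24.4 ± 0.663 CPM in the exposed cells (SD, n = 3 each) and for Tmem173 (STING) of 59.9 ± 3.53 and 60.5 ± 3.99 CPM. Their log2 fold changes were 0.01 and 0.02 (adjusted p 0.967 and 0.929).

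Among the endosomal receptors other than Tlr3, Tlr9 had a count of 0 in all 6 libraries and Tlr7 had 1 count over the P-VITRO and 3 over the PTR-VITRO libraries. Ticam2, the adaptor that joins TRIF to TLR4, also had a count of 0 in each library. A count of 0 allows a level of up to 3 counts, which is 0.0925 CPM in the deepest and 0.168 CPM in the shallowest library, and this limit covers counting error only.

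The genes of proteins that work around the members showed no call in either direction. Of 12 cofactors of the sensors, 7 had a positive and 5 a negative log2 fold change, among them Trim25, a ubiquitin ligase that activates RIG-I, with 0.05 (edgeR adjusted p 0.736, and 0.02 to 0.10 when PTR-VITRO replicate 2 or 1 was left out). Of 13 tested adaptors and kinases, 5 were positive and 8 negative, with Traf3, which joins MAVS and TRIF to TBK1, at 0.02 (adjusted p 0.894). Of 8 transcription factors, 5 were positive and 3 negative, with Irf1 at 0.04 (adjusted p 0.810). Of 14 inhibitors, 4 were positive and 10 negative. Pcbp2, which promotes the breakdown of MAVS, averaged 711.8 ± 18.5 CPM in the control and 669 ± 30.2 CPM in the exposed cells (SD, n = 3 each; log2 fold change -0.09, unadjusted p 0.0411, adjusted p 0.416), and its log2 difference was -0.06 without PTR-VITRO replicate 2. Nlrx1, a mitochondrial inhibitor of MAVS, differed by -0.19 on the log2 scale (adjusted p 0.650, and -0.29 to -0.12 when PTR-VITRO replicate 2 or P-VITRO replicate 3 was left out), Tnfaip3, the ubiquitin editor A20, of -0.07 (adjusted p 0.751) and Adar, which edits double-stranded RNA, of -0.02 (adjusted p 0.927).

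At the end of the pathway, the 8 IFN genes on the list were almost silent. Other IFN genes were not examined. Ifnb1, the gene of IFN-beta, had 0, 4 and 1 counts in P-VITRO and 6, 4 and 2 counts in PTR-VITRO, or 5 and 12 counts in all. It was removed by the filter on low counts, and in the fit without a filter its unadjusted p was 0.194 (edgeR adjusted p 0.756). Ifna1, Ifna2, Ifna4, Ifna5 and Ifnl3 had a count of 0 in all 6 libraries. Ifne had 2 counts and Ifnl2 1 count over the PTR-VITRO libraries and both had 0 in P-VITRO. Differences in these genes were not detectable at this depth.

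A further list held 9 genes that IRF3 and IRF7 can switch on directly. All 9 had a positive log2 fold change, as did 48.5% of all genes tested, and their median was 0.13 (median over all genes tested -0.00). The 9 were positive under each scaling tried, but 8 of the 9 were positive without P-VITRO replicate 2 and 8 without PTR-VITRO replicate 2. Without P-VITRO replicate 1 the median of the 9 was 0.21. None was called in the main edgeR fit, where 0.246% of all tested genes were called. An unadjusted p below 0.05 was found for 3, against 11.4% of all tested genes. The groups did not overlap in 4 (Ifit3, Rsad2, Oasl1 and Cxcl10), against 17.6% of all tested genes. Rsad2, which encodes the antiviral enzyme viperin, had 68.5, 66.7 and 68.8 CPM in P-VITRO and 75.2, 89.5 and 83.4 CPM in PTR-VITRO. Every PTR-VITRO library lay above every P-VITRO library (log2 fold change 0.28, 95% interval 0.15 to 0.41, edgeR adjusted p 0.0919). DESeq2 gave it an adjusted p of 0.00595, and in the 6 leave-one-out fits edgeR gave 0.0166 (without PTR-VITRO replicate 1) to 0.377. Oasl1, which is known to repress translation of Irf7 mRNA, had 68.4, 60.6 and 67.5 CPM in P-VITRO and 74.6, 78.35 and 75.8 CPM in PTR-VITRO, also without overlap (log2 fold change 0.22, edgeR adjusted p 0.139, DESeq2 adjusted p 0.0395).

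Ifit3, an IFN-induced RNA-associated protein, differed by 0.25 on the log2 scale (unadjusted p 0.0225, edgeR adjusted p 0.331), and Ifit1, which binds foreign RNA ends, by 0.11 (adjusted p 0.639). The value of Ifit1 moved with single P-VITRO libraries, with 0.03 without replicate 2 and 0.21 without replicate 1, and that of Isg15 likewise, with 0.04 and 0.21. The chemokines Ccl5 and Cxcl10 had 0.19 (adjusted p 0.448) and 0.13 (adjusted p 0.535), the latter 0.08 without P-VITRO replicate 3. The lowest of the 6 libraries was P-VITRO replicate 2 for 6 of the 9 targets and P-VITRO replicate 3 for the other 3, and the highest was PTR-VITRO replicate 2 for 6. Among the 10 members, P-VITRO replicate 2 was the lowest for 2 and PTR-VITRO replicate 2 the highest for 3. These targets are also IFN-stimulated genes that respond to IFN receptors, so their levels do not tell which route acted on them. Whether the members and the targets differ in their response was not tested.

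**Figure D4:**
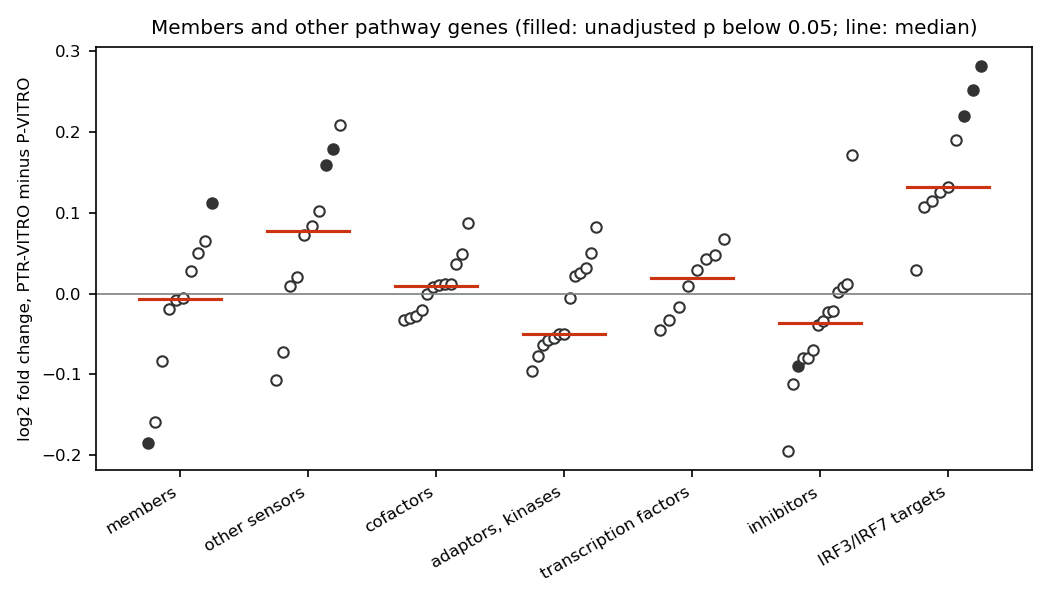
Log2 fold change between PTR-VITRO and P-VITRO (vertical axis) of the 10 members and of the tested genes of 6 pathway lists, each point a gene, filled where the unadjusted edgeR p was below 0.05, with red lines at the medians. The members scatter around 0 with a median of -0.01, and all 9 IRF3/IRF7 targets lie above 0 with a median of 0.13.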

How the data were processed

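Polyadenylated RNA of 6 EMT6 samples was sequenced by the authors from stranded libraries, checked with FastQC 0.11.5, aligned to GRCm38 with STAR 2.6.0a and quantified with RSEM 1.3.1, per the labels. The deposited table holds gene-level expected counts, not scaled between samples (12.5% to 13.8% of values not whole). Multi-mapped reads are divided by RSEM. Symbols, positions and lengths came from GENCODE M21 (all but 105 of the 53465 identifiers matched, the members included).

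Expected counts were rounded, filtered (filterByExpr, minimum count 10, minimum total 15), scaled by the upper quartile and compared between groups in edgeR 4.0.16 (R 4.3.3; quasi-likelihood fit and F test), with Benjamini-Hochberg adjustment over all 14217 genes and a threshold of 0.05. Standard errors and 95% intervals were derived from the F statistic. The fit was tested on simulated data. Alternatives were TMM, no scaling factor, DESeq2 1.42.0, limma-voom (limma 3.58.1), other filters, the replicate number as a block and leaving out each sample.

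Named genes were the members, the IFN genes, 15 further genes chosen by name and every listed gene with an unadjusted p below 0.05. Tlr7, Tlr9 and Ticam2 were added after their counts were seen. The members and lists were chosen with earlier results of these data known. The study calls its replicates technical unless otherwise specified, and specifies nothing else for these samples, so p-values and intervals measure only the spread between these libraries.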

Additional observations from a re-analysis of the deposited data

How the results depend on the processing

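No member was called in any of the 13 other fits. Of all genes, 35 were called, and 111 with DESeq2, 400 without a filter on low counts, 54 with at least 10 counts in every sample, 68 with a replicate block, and between 8 (without PTR-VITRO replicate 3) and 64 (without P-VITRO replicate 2) in the leave-one-out fits. They were 11, 9 and 12 without P-VITRO replicate 1, P-VITRO replicate 3 and PTR-VITRO replicate 2. Of the 66 other pathway genes, 0 were called, and 2 with DESeq2 (Rsad2, Oasl1), 3 without a filter (Rsad2, Oasl1 and Eif2ak2) and 0 to 1 in the leave-one-out fits (Rsad2 without PTR-VITRO replicate 1). The cause was not tested. Deviations from the group means were correlated between samples of the same replicate number (0.109, 0.095 and -0.0556 across genes). The value of replicate 1 lay above the threshold of 0.1 set for this check. Differently numbered samples were not compared, so this does not settle whether the numbers pair the samples. The replicate block called 0 members.

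For the members, 67 of 70 comparisons with other settings and 50 of 60 with a library left out kept their sign and their side of the threshold, and the others changed sign close to 0. Without a scaling factor the log2 fold change was 0.00731 for Ddx58 and 0.00416 for Mavs, and limma-voom gave 0.0031 for Mavs. In the leave-one-out fits it ran from -0.029 to 0.023 for Ddx58, -0.0749 to 0.0473 for Mavs, -0.0509 to 0.0375 for Ikbke and -0.0483 to 0.111 for Irf7. The sign also turned for Tmem173 (-0.0352 to 0.0729), Mb21d1 (-0.0119 to 0.0287), Traf3 (-0.00378 to 0.0538), Irf1 (-0.0138 to 0.0828), Tnfaip3 (-0.124 to 0.0185) and Adar (-0.104 to 0.0328). Over all genes, the median lay between -0.0109 and 0.00845 in these fits. Depth limits the IFN genes, Tlr7, Tlr9 and Ticam2.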
